A study of Mus musculus with 6 samples.

Results

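Glycolysis splits glucose into pyruvate in the cytosol, and each of its steps can be run by one of several related enzymes that are made from separate genes. Hexokinases trap glucose in the cell, phosphofructokinase is the main control point, aldolases split the phosphorylated sugar, pyruvate kinase makes pyruvate, and lactate dehydrogenases interconvert pyruvate and lactate. In brain, as background, glycogen is stored largely in astrocytes and is broken down by glycogen phosphorylase, and lactate passes between cells through monocarboxylate transporters. The genes described here are 10 of the 27998 genes in the deposited table and were chosen by name: the hexokinases Hk1 and Hk2, the platelet-type phosphofructokinase Pfkp, its regulator Pfkfb3, the aldolases Aldoa and Aldoc, the pyruvate kinase Pkm, the lactate dehydrogenase subunits Ldha and Ldhb, and the brain-type glycogen phosphorylase Pygb. All 10 symbols were found.

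The levels were measured in single cells of the preoptic region of the hypothalamus. The mice were 60 to 70 days old and had been housed singly for 3 days. There were 3 libraries from female mice and 3 from male mice, and each library was a pool of 3 animals. The labels give no strain, genotype or treatment beyond the housing, and every group shared the dissociation with protease, the sorting for live cells and the droplet-based 10x Chromium protocol. Each library was a pool, so a p-value measures the spread between pools and not between animals.

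The libraries held between 1278429 and 81162330 UMIs (unique molecular identifiers, each a count of 1 captured RNA molecule), and the smallest was female replicate 3, with 406 cells against 1939 to 9365 cells in the others. Of 31299 barcodes, 30824 had at least 500 genes and at most 20% mitochondrial UMIs, 1002 of these were called doublets and left out, and 479 barcode sequences occurred in more than 1 library. The remaining 29822 cells fell into 29 clusters, which were named from marker genes: 924 astrocytes, 6595 mature oligodendrocytes, 1549 oligodendrocyte precursors, 796 microglia, 483 endothelial cells, 443 mural cells (the contractile cells around vessels) and 18220 neurons. The 10 genes and the other genes of glucose metabolism were kept out of the clustering, and no marker list held them, so their levels did not shape the classes. The microglia cluster was led by Ctss and P2ry12 but also by Il1a, Ccl3 and Ccl4, which are immune activation genes, and a haemoglobin gene was among the leading genes of the endothelial cluster. Neuronal markers, of which 12 of 12 were detected in every class, summed to 10416 to 12049 per 1000000 UMIs in the neurons of the 6 libraries. In the other classes they summed to 103.0 to 4602 in astrocytes, 206 to 1098 in mature oligodendrocytes, 822 to 2080 in precursors, 0 to 1531 in microglia, 48.8 to 3930 in endothelial cells and 214 to 2417 in mural cells. Free RNA taken up from lysed cells, estimated from Snap25, Syt1 and Stmn2, came to 0 to 54.6% of the astrocyte UMIs, 2.28 to 44.4% of the endothelial UMIs and 0 to 18.7% of the microglial UMIs. Values without that share are given below where they differ. Markers of mature oligodendrocytes, which summed on the same scale to 69679 to 99543 in their own class, also reached 659 to 15165 in astrocytes, whose own markers summed to 7884 to 17512. They came to 805 to 7136.5 in endothelial cells, 1135 to 4419 in mural cells and 1207 to 2149.5 in microglia, against 339.9 to 1119 in neurons. The free RNA estimate rests on neuronal genes alone, and the part of oligodendrocyte RNA in the levels was tested only by leaving out the astrocyte cluster rich in myelin transcripts.

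UMIs were summed over the cells of a class in each library and are given as counts per 1000000 UMIs of that class (CPM), with the mean ± SD over libraries. All 6 libraries gave a value except for mural cells, where female replicate 3 had under 10 cells. Chromium counts tagged ends of transcripts, so CPM were not divided by gene length. Differences between classes are log2 differences from edgeR's quasi-likelihood test with the library as a block, each with its standard error (SE) and a Benjamini-Hochberg adjusted p over the 12047 genes tested, with 0.05 as the limit for a call.

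Astrocytes, microglia and vessel cells each held a different set of isoforms from neurons, while mature oligodendrocytes were lower in most of the 10 genes. Astrocytes were higher than neurons in 4 genes (Aldoc, Pygb, Pfkfb3 and Ldhb) and lower in 5 (Hk1, Pfkp, Aldoa, Pkm and Ldha), in a comparison that called 59.7% of all genes (26.8% higher, 32.8% lower). Mature oligodendrocytes were higher in 2 and lower in 8, where 78.4% of all genes were called (37.5% higher, 40.9% lower). Microglia were higher in 4 (Hk2, Pfkfb3, Ldha and Ldhb) and lower in 5, where 74.0% were called (32.0% higher, 42.0% lower). Endothelial cells were higher in 2 and lower in 7, where 64.3% were called (28.6% higher, 35.6% lower), and mural cells were higher in Pygb alone and lower in 4, where 59.0% were called (25.7% higher, 33.3% lower). The share of the 10 genes called was thus above the background in every comparison but that of mural cells, and the background itself was large. The median log2 difference of the 10 genes was -0.09 in astrocytes, -1.23 in mature oligodendrocytes, -0.26 in microglia, -1.05 in endothelial cells and -0.41 in mural cells, each minus neurons. Over all genes tested the medians were -0.12, -0.05, -0.25, -0.18 and -0.19 in the same comparisons.

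The level comparisons depended on how the sums were scaled. The TMM factors used here assume that most genes do not differ, while plain UMI totals treat every class as holding the same amount of RNA. Between 59.0 and 78.4% of all genes were called in these comparisons with neurons, so the TMM assumption did not hold strictly here. Plain totals moved the median of all genes by -0.12 in astrocytes, -0.68 in mature oligodendrocytes, -0.84 in microglia, -0.20 in endothelial cells and -0.33 in mural cells, each minus neurons on the log2 scale. With plain totals the 10 genes split into 4 higher and 5 lower in astrocytes, 1 and 8 in mature oligodendrocytes, 2 and 7 in microglia, 1 and 7 in endothelial cells and 1 and 7 in mural cells. The ratio between isoforms within a class does not depend on this scaling.

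**Figure D1:**
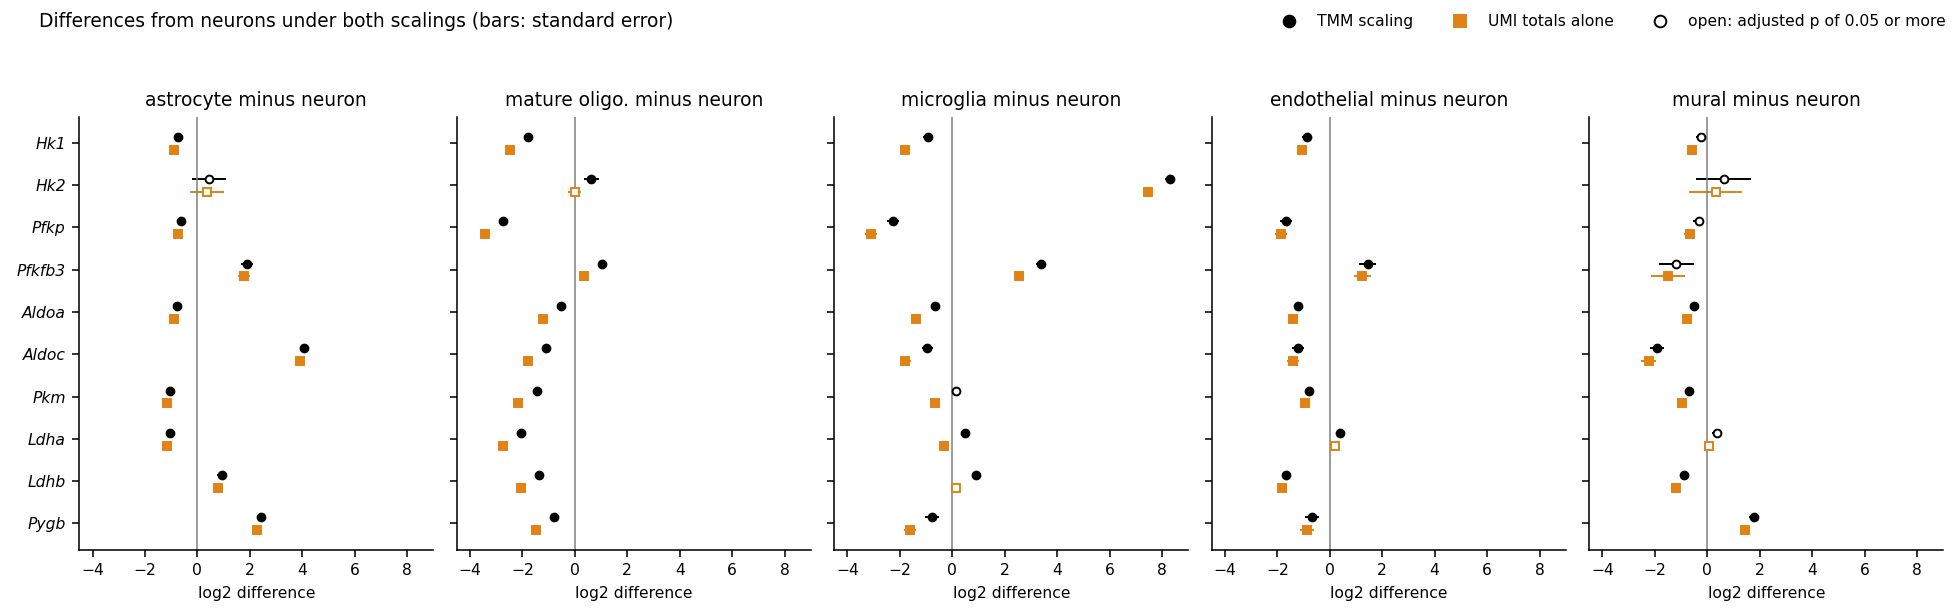
Log2 difference (x axis) of each of the 10 genes in 5 cell classes, each minus neurons, with circles for TMM scaling, squares for plain UMI totals, bars for standard errors and open symbols for an adjusted p of 0.05 or more. Hk2 in microglia lay at 8.29 and 7.45 under TMM and plain totals, Aldoc in astrocytes at 4.08 and 3.92, and in microglia Ldha (0.47 and -0.33) and Pkm (0.13 and -0.64) had opposite signs, as did Hk2 in mature oligodendrocytes (0.63 and -0.01); endothelial Hk2 had 0 UMIs and is not drawn.

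Hexokinase 1 is the form bound to mitochondria in most of the brain, and hexokinase 2 is the form known from muscle and fat that responds to insulin and to low oxygen. Hk2 (chr6:82725025-82774454, minus strand, mm10) was highest in microglia, which held 789 of its 1048 UMIs in all cells, against 143 in the far more numerous neurons. In microglia it had a lowest value of 104.6 CPM, a median of 195 and a highest of 340.5, against a lowest of 0, a median of 0.88 and a highest of 1.17 CPM in neurons. Every microglial value lay far above every neuronal value, and the log2 difference was 8.29 ± 0.17 (SE; adjusted p = 9.04e-39). In endothelial cells no Hk2 UMI was seen among 2221674, so that the pooled level in microglia (185.7 CPM) was at least 137.5-fold higher than the 1.35 CPM that 3 UMIs over that class would give. Mural cells had 0.88 ± 1.22 CPM (SD, n = 5), astrocytes 0.76 ± 1.02 and mature oligodendrocytes 0.92 ± 0.65 (SD, n = 6 each), from 2, 5 and 37 UMIs. These levels did not differ beyond their spread from the 0.81 ± 0.43 CPM of neurons, apart from mature oligodendrocytes, which were called (log2 difference 0.63 ± 0.29, adjusted p = 0.0417). That call ended with plain UMI totals (log2 difference -0.01), thinned cells (-0.03), no count filter (0.29), DESeq2 (0.36), sums of at least 20 cells (0.48), free RNA subtracted (0.48), no library block (0.49) and stricter doublet removal (0.56). It also ended without each library other than female replicate 2, where the log2 difference lay between 0.16 (without male replicate 1) and 0.69 (without male replicate 2).

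Cell by cell, 24.9% of microglia thinned to 2000 UMIs held an Hk2 UMI (47.4% unthinned), against 0.23% of neurons (0.75% unthinned), with median depths of 5146.5 and 7048.5 UMIs. With the free RNA taken out the difference between microglia and neurons was 9.19 on the log2 scale. Outside the main classes Hk2 was also detected in newly formed oligodendrocytes (14.2 ± 9.3 CPM, n = 5, from 44 UMIs), dividing cells (16.2 ± 19.2 CPM, n = 5, from 7 UMIs), macrophages (17.8 ± 6.9 CPM, n = 4, from 7 UMIs) and fibroblasts (28.0 ± 5.1 CPM, n = 3, from 8 UMIs). Genes known to respond to tissue dissociation moved with the microglia: 10 of 11 on a list that included Fos, Jun and Atf3 were higher than in neurons, and the list summed to 5199 to 19130 CPM in microglia against 1174 to 2090 CPM in neurons. Their part in the Hk2 level was not tested.

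Hk1 (chr10:62268855-62379908, minus strand) was highest in neurons. Microglia had a lowest value of 9.51 CPM, a median of 35.3 and a highest of 123.8, against 99.0, 118 and 136 CPM in neurons, and the 2 ranges overlapped through 1 library, female replicate 3, with 4 Hk1 UMIs. The log2 difference was -0.94 ± 0.16 (adjusted p = 1.23e-06). Mature oligodendrocytes were lowest at 22.1 ± 3.3 CPM (log2 difference from neurons -1.80 ± 0.12, adjusted p = 5.82e-19), and astrocytes (58.8 ± 11.9 CPM, -0.76 ± 0.15) and endothelial cells (56.6 ± 23.3 CPM, -0.88 ± 0.17) lay between. Mural cells, at 47.1, 87.1, 81.9, 94.6 and 66.9 CPM, were all under the neuronal values but were not called (-0.24 ± 0.17, adjusted p = 0.228). That difference was called without male replicate 2 (-0.46), with sums of at least 20 cells (-0.47), with plain UMI totals (-0.58) and with no count filter (-0.61).

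The promoter of Hk2 is shown because Hk2 was the gene that differed most between classes, with the hypoxia-response core ACGTG, searched on both strands, in capitals. The core stood at 2 places in the 300 bases from 250 before to 50 after the start of the gene, both on the opposite strand (RefSeq sequence, GRCm38.p6, chr6:82774405-82774704, minus strand, printed 5′ to 3′).
Hk2: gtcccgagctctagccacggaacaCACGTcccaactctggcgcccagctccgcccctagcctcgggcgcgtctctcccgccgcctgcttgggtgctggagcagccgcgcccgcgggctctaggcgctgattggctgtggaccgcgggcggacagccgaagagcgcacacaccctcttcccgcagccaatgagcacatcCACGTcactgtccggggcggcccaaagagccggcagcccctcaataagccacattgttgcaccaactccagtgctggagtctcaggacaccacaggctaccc
Among 32851 mouse promoters of this length 19.6% held the core, and among the 17 promoters listed for the 10 genes 10 did. Of the 17, 2 Aldoa promoters overlap and share the same site, so the promoters are not independent and no enrichment is read from the count. A match says only that these letters are present.

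Phosphofructokinase was represented by Pfkp, the form known from platelets and brain, and by Pfkfb3, which makes the sugar phosphate that activates phosphofructokinase. Pfkp (chr13:6579768-6648777, minus strand) overlaps Pitrm1 on the other strand at its 3′ end, and no source used here states whether counting kept the strand, so its level is uncertain to the extent that reads were shared. Neurons held the most Pfkp, with a lowest value of 125.8 CPM, a median of 132 and a highest of 150.1. Mature oligodendrocytes had 0, 11.8 and 18.1 CPM (log2 difference -2.73 ± 0.16, adjusted p = 9.89e-22) and microglia 0, 12.7 and 26.2 CPM (-2.25 ± 0.23, adjusted p = 2.06e-12), and neither range touched that of neurons. Endothelial cells (31.5 ± 21.9 CPM, -1.68 ± 0.22) and astrocytes (82.9 ± 16.2 CPM, -0.62 ± 0.17) were also called lower. In mural cells Pfkp was 94.2, 102, 79.1, 97.1 and 13.4 CPM, the last from 1 UMI, and was not called (-0.33 ± 0.20, adjusted p = 0.160). The mural difference was called with sums of at least 20 cells (-0.55), without female replicate 1 (-0.56), with plain totals (-0.67) and with no count filter (-0.70). With free RNA taken out the differences grew to -4.01 in mature oligodendrocytes, -4.13 in microglia and -3.41 in endothelial cells.

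Pfkfb3 (chr2:11471433-11554077, minus strand) ran the other way. Microglia had a lowest value of 27.7 CPM, a median of 50.2 and a highest of 92.9, and astrocytes 17.9, 21.6 and 61.8 CPM, against 4.502, 6.52 and 8.72 CPM in neurons. Both ranges lay above that of neurons, with log2 differences of 3.40 ± 0.19 in microglia (adjusted p = 6.44e-22) and 1.88 ± 0.22 in astrocytes (adjusted p = 4.25e-10). Endothelial cells (14.5 ± 10.0 CPM, 1.44 ± 0.31, adjusted p = 8.07e-05) and mature oligodendrocytes (9.82 ± 2.76 CPM, 1.04 ± 0.15, adjusted p = 3.41e-08) were called higher by less. Mural cells, with 4 UMIs in all, had 8.56, 0, 2.82, 2.49 and 0 CPM and were not called (-1.18 ± 0.68, adjusted p = 0.134), but were called lower without female replicate 1 (-2.22), with plain totals (-1.51) and with no count filter (-1.53). Taking out free RNA moved the difference in astrocytes to 2.60. The dissociation-response list that was higher in microglia also had 10 of 11 genes higher in endothelial and in mural cells than in neurons, 8 higher and 1 lower in mature oligodendrocytes, and 1 higher and 5 lower in astrocytes. In mature oligodendrocytes the list summed to 2109 to 5917 CPM, against 1174 to 2090 CPM in neurons, and its part in the Pfkfb3 levels was not tested.

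The aldolases divided the cells into those with much Aldoc and those with almost only Aldoa. Aldoc (chr11:78322968-78327781, plus strand) is aldolase C, the brain form and a known astrocyte marker. Its level in astrocytes had a lowest value of 1627 CPM, a median of 3199.6 and a highest of 3874, against 126, 192 and 199 CPM in neurons. All 6 astrocyte values were above all neuronal values, and the log2 difference was 4.08 ± 0.18 (adjusted p = 3.60e-26). Of the 7 main classes, oligodendrocyte precursors came next with 448 ± 37.7 CPM (1.25 ± 0.17 above neurons, adjusted p = 3.93e-09, where 66.1% of all genes were called). Neurons in turn were above microglia (73.8 ± 56.0 CPM, -0.96 ± 0.21), endothelial cells (59.0 ± 33.4 CPM, -1.21 ± 0.22), mature oligodendrocytes (52.9 ± 13.4 CPM, -1.10 ± 0.17) and mural cells (34.2 ± 17.8 CPM, -1.91 ± 0.27). Microglia and endothelial cells, and endothelial cells and mature oligodendrocytes, did not differ from each other in Aldoc beyond their spread (adjusted p = 0.440 and 0.691). After subtraction of free RNA the difference in Aldoc was -3.70 in endothelial cells and -4.79 in mural cells.

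Aldoa (chr7:126795234-126800751, minus strand, overlapping Fam57b on the other strand), the form of muscle and most tissues, was highest in neurons. Its lowest, median and highest values were 783, 1007 and 1054 CPM in astrocytes and 708, 779 and 828 CPM in mature oligodendrocytes, against 1625, 1724 and 2032 CPM in neurons. Neither range overlapped that of neurons (log2 differences -0.77 ± 0.13, adjusted p = 9.47e-07, and -0.52 ± 0.12, adjusted p = 0.000157). Microglia (703 ± 127 CPM, -0.64 ± 0.13), endothelial cells (657 ± 136 CPM, -1.23 ± 0.13) and mural cells (1057 ± 46.5 CPM, -0.49 ± 0.14) were lower as well. Aldoc therefore made up 73.8 ± 8.4% of aldolase UMIs in astrocytes and 45.1 ± 4.7% in precursors, against 9.31 ± 1.77% in neurons.

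Pkm (chr9:59656368-59679375, plus strand) makes the 2 pyruvate kinase splice forms of the brain, which UMIs per gene do not separate. It was highest in neurons, with a lowest value of 1017 CPM, a median of 1094 and a highest of 1363. Mature oligodendrocytes had 214, 260.6 and 296 CPM (log2 difference -1.46 ± 0.13, adjusted p = 3.16e-14) and astrocytes 350.2, 490.4 and 598 CPM (-1.03 ± 0.14, adjusted p = 1.02e-08), and the endothelial (593 ± 72.4 CPM) and mural (579 ± 33.7 CPM) levels were lower by 0.78 ± 0.14 and 0.69 ± 0.15. Microglia had 588, 737 and 837 CPM and were not called against neurons (0.13 ± 0.14, adjusted p = 0.405). That comparison turned with the scaling: with plain totals the log2 difference was -0.64 (adjusted p = 4.63e-07). Thinned cells (0.42, adjusted p = 0.00304) and leaving out female replicate 3 (0.29) made it a call in the other direction, no count filter gave -0.29 and DESeq2 -0.11, neither called, and without female replicate 1, male replicate 1 or male replicate 2 the difference was -0.07, -0.09 and -0.14.

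**Figure D2:**
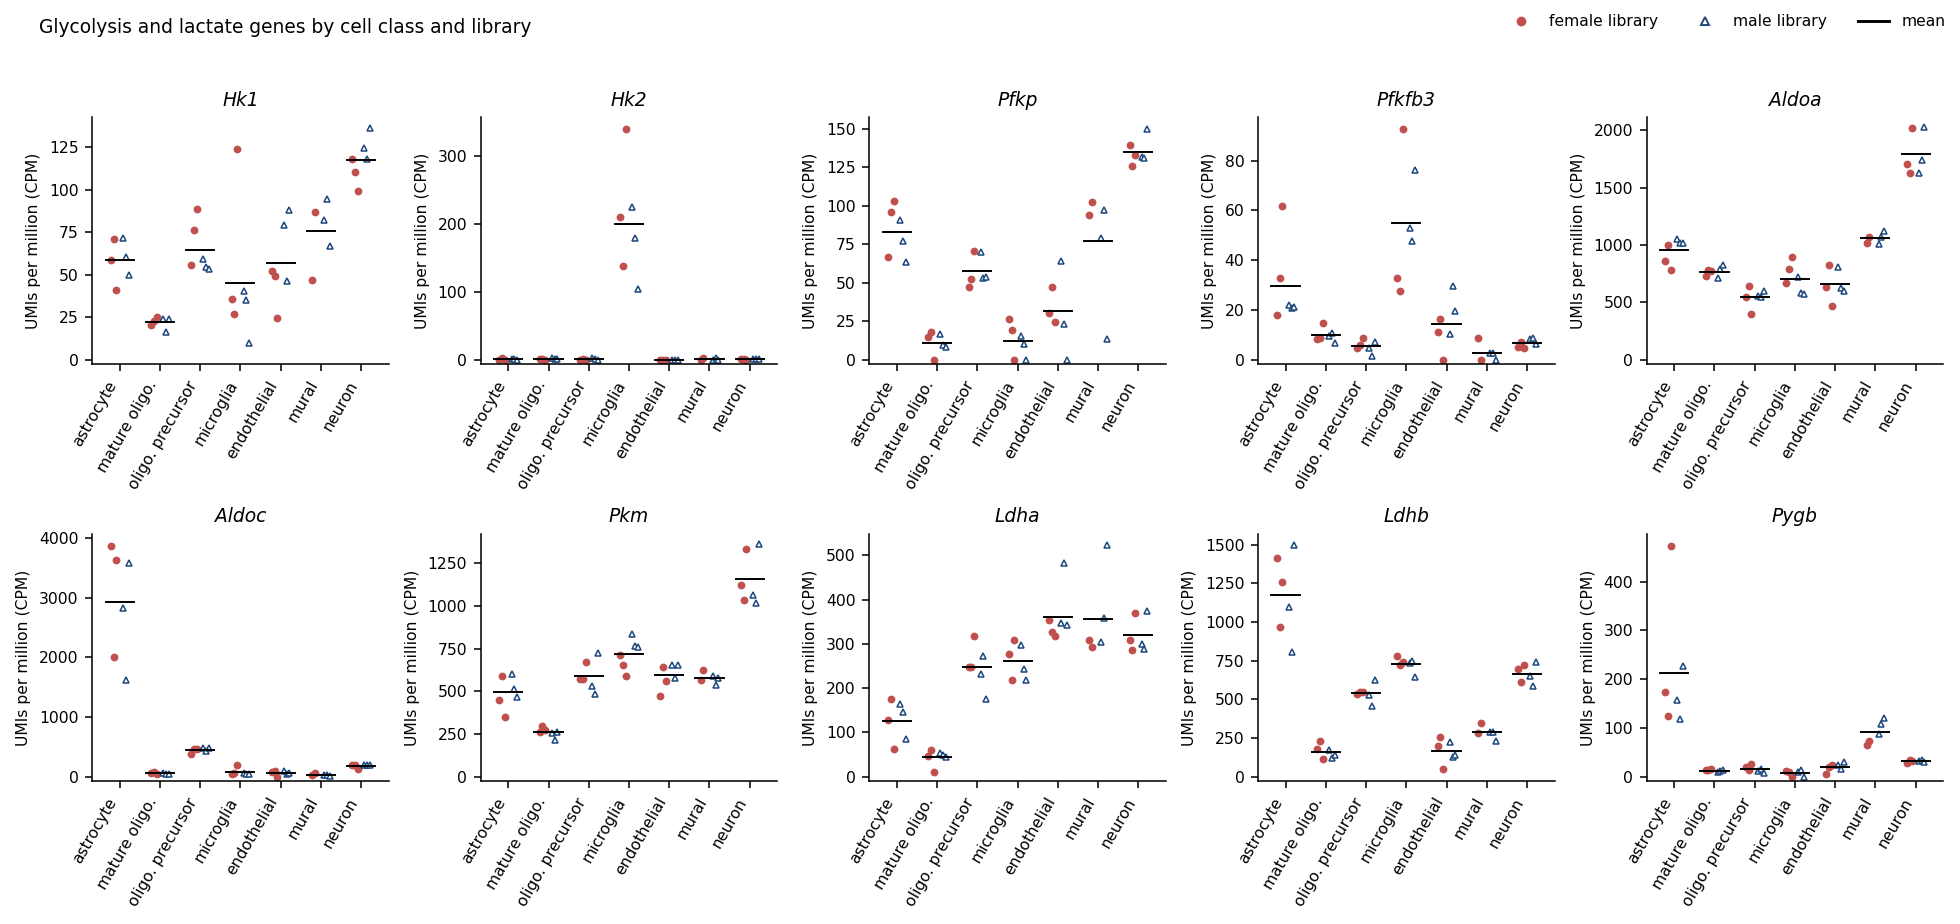
CPM (y axis, UMIs per 1000000 of the class) of each of the 10 genes in 7 cell classes, with circles for female libraries, triangles for male libraries and a bar at the mean. Hk2 stood above 100 CPM in microglia only, Aldoc reached 1627 to 3874 CPM in astrocytes, and Ldha and Ldhb ran in opposite directions in astrocytes and endothelial cells.

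Lactate dehydrogenase is a tetramer of LDHA and LDHB subunits; as background, enzyme rich in LDHA is known for turning pyruvate into lactate in glycolytic tissue, and enzyme rich in LDHB is known from heart, where lactate is used. Ldha (chr7:46841475-46855627, plus strand) was, of the 7 main classes, lowest in mature oligodendrocytes and astrocytes. Astrocytes had a lowest value of 61.8 CPM, a median of 137 and a highest of 175, and mature oligodendrocytes 10.5, 47.4 and 59.1 CPM, against 286, 304 and 373 CPM in neurons. Neither range overlapped that of neurons (log2 differences -1.03 ± 0.16, adjusted p = 4.57e-07, and -2.07 ± 0.15, adjusted p = 5.71e-18). Endothelial cells (317, 345 and 482 CPM) overlapped neurons and were called higher by 0.38 ± 0.16 (adjusted p = 0.0305). That call was lost with plain totals (0.20), DESeq2 (0.32), no library block (0.38), sums of at least 20 cells (0.22), no count filter (-0.06), and without female replicate 1 (0.22), male replicate 1 (0.25) or male replicate 2 (0.12). Mural cells, at 308, 292, 305, 358 and 522 CPM, were not called (0.36 ± 0.17, adjusted p = 0.0592), but were called higher with thinned cells (0.45), with cells named by markers alone (0.41) and without female replicate 3 (0.40). Microglia, at 218, 259 and 309 CPM, were called higher with TMM (0.47 ± 0.15, adjusted p = 0.00548) and lower with plain totals (-0.33, adjusted p = 0.0458). The microglial call was lost with DESeq2 (0.16), no count filter (0.05) and sums of at least 20 cells (0.31), and without female replicate 1 (0.23), male replicate 1 (0.23) or male replicate 2 (0.25).

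Ldhb (chr6:142490249-142507957, minus strand) has a near-identical copy of its 3′ end in Gm5514, which is not among the genes of the deposited table. The Ldhb counts are uncertain to the extent that reads were shared with Gm5514. Astrocytes held the most, with a lowest value of 808 CPM, a median of 1177 and a highest of 1495, against 582, 671 and 742 CPM in neurons, and no values overlapped (log2 difference 0.92 ± 0.16, adjusted p = 1.55e-06). Microglia, at 647, 739 and 780 CPM, were called higher (0.91 ± 0.16, adjusted p = 1.36e-06) but not with plain totals (0.14, adjusted p = 0.352). Mature oligodendrocytes (159.8 ± 44.3 CPM, -1.37 ± 0.16), endothelial cells (165 ± 76.1 CPM, -1.66 ± 0.18) and mural cells (287 ± 41.5 CPM, -0.88 ± 0.18) were called lower. In endothelial cells the difference grew to -3.73 once free RNA was taken out.

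The proximal promoters of the 2 subunit genes are shown because their products made up the share that differed between classes. The first Ldha promoter held 5 matches to ACGTG counted over both strands, of which 4 came from the palindrome CACGTG, present at 2 places, and the Ldhb promoter held none (RefSeq sequences, GRCm38.p6; Ldha chr7:46845554-46845853, plus strand; Ldhb chr6:142507908-142508207, minus strand; the motif and its palindrome in capitals, 5′ to 3′).
Ldha: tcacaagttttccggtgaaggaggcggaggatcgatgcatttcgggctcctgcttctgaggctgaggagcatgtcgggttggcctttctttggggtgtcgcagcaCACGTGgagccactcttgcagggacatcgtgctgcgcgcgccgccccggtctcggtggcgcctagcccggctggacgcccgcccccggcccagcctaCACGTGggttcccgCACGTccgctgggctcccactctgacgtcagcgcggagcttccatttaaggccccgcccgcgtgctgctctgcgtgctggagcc
Ldhb: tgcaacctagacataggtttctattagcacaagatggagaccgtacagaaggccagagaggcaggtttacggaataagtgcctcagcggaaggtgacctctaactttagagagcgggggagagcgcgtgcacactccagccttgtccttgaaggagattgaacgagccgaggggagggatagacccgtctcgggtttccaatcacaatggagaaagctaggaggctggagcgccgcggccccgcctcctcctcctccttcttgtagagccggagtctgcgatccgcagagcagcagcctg
A second Ldha promoter in the same source held no match.

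Seen as a ratio, vessel cells and astrocytes stood at the 2 ends of the 7 main classes. Newly formed oligodendrocytes, outside these classes, had Ldha shares of 48.8 to 57.7%, inside the mural range of 45.8 to 69.6%. A cluster of mature oligodendrocytes described below had a lower mean share than astrocytes. Ldha made up 69.7 ± 11.7% of Ldha plus Ldhb UMIs in endothelial cells (SD, n = 6) and 54.9 ± 8.9% in mural cells (n = 5), against 32.5 ± 1.24% in neurons (n = 6). It made up 26.2 ± 2.4% in microglia, 20.9 ± 6.8% in mature oligodendrocytes and 10.3 ± 4.8% in astrocytes. The differences from neurons were 37.2 points in endothelial cells, 22.7 in mural cells, -6.25 in microglia, -11.6 in mature oligodendrocytes and -22.2 in astrocytes, and each had the same sign in every library. The exact two-sided sign-flip test over libraries gave p = 0.03125 for those with 6 libraries and p = 0.0625 for mural cells with 5, the smallest values these numbers of libraries allow. Over the 15 ratio comparisons made, the adjusted values were 0.067 and 0.078, so no ratio passed 0.05 after adjustment. With free RNA taken out the endothelial difference was 56.6 points.

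The hexokinase ratio set microglia apart. Hk2 made up 83.8 ± 5.9% of Hk2 plus Hk1 UMIs in microglia, with a range of 73.3 to 91.7%, against 0.67 ± 0.36% in neurons, a difference of 83.1 points in the same direction in 6 of 6 libraries (exact sign-flip p = 0.03125, adjusted p = 0.067). In mature oligodendrocytes the share was 3.99 ± 2.61%, a difference of 3.33 points (p = 0.0625, exact), and in astrocytes 1.08 ± 1.40% from 255 UMIs of both genes. For the aldolases, the Aldoc share in astrocytes exceeded that in neurons by 64.5 points, again in 6 of 6 libraries (exact sign-flip p = 0.03125, adjusted p = 0.067), and in mature oligodendrocytes the difference was -2.84 points. In microglia the Aldoc share differed from that in neurons by -0.52 ± 5.86 points (SD over 6 libraries; p = 0.906, exact sign-flip test). It was lower in 5 of the 6, and female replicate 3, with 17.1% in microglia from 35 UMIs of both genes against 5.88% in neurons, was the exception. Without that library the difference was -2.87 points (exact sign-flip p = 0.0625, the smallest that 5 libraries allow).

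**Figure D3:**
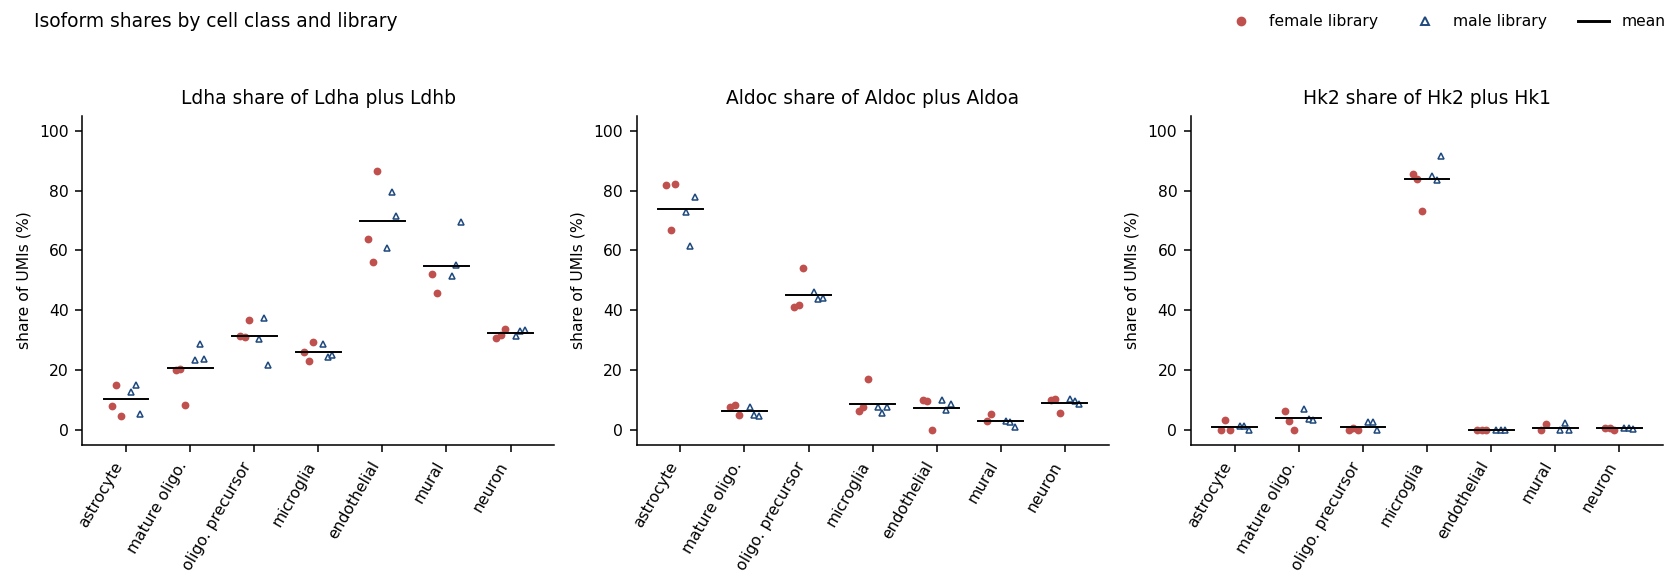
Share of UMIs (y axis, percent) that Ldha took of Ldha plus Ldhb, Aldoc of Aldoc plus Aldoa, and Hk2 of Hk2 plus Hk1 in 7 cell classes, with 1 point per library (circles female, triangles male) and a bar at the mean. Endothelial Ldha shares lay between 56.1 and 86.7%, astrocyte Aldoc shares between 61.5 and 82.2%, and microglial Hk2 shares between 73.3 and 91.7%, all above the neuronal values.

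Glycogen phosphorylase releases glucose units from glycogen, and Pygb is its brain form. Pygb (chr2:150786735-150831758, plus strand) was highest in astrocytes, with a lowest value of 118 CPM, a median of 165 and a highest of 474, and next, of the 7 main classes, in mural cells, with 64.2, 73.9, 87.5, 107 and 120.5 CPM, against 28.8, 31.9 and 34.6 CPM in neurons. Both classes lay wholly above neurons, by 2.41 ± 0.15 (adjusted p = 4.55e-20) and 1.78 ± 0.21 (adjusted p = 1.72e-10) on the log2 scale. Mature oligodendrocytes (12.3 ± 1.7 CPM, -0.78 ± 0.15), endothelial cells (19.5 ± 8.4 CPM, -0.68 ± 0.28) and microglia (7.24 ± 5.95 CPM, -0.77 ± 0.27) were called lower. The endothelial call, from 39 UMIs, was lost without female replicate 2 (-0.73, adjusted p = 0.0801), and with thinned cells neither the endothelial (-0.79, adjusted p = 0.0916) nor the microglial difference (-0.73, adjusted p = 0.0815) was called. Of all glycogen phosphorylase UMIs (Pygb, Pygl and Pygm) Pygb took 69.6 ± 3.2% in astrocytes and 65.3 ± 4.7% in mural cells, against 85.2 ± 7.4% in neurons. The neuronal mean included 100% in female replicate 3, from 14 UMIs, while the other libraries lay between 80.2 and 84.4%.

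Within the oligodendrocyte lineage the 10 genes were compared between mature cells and precursors, where 63.7% of all genes were called (31.2% higher, 32.5% lower). Mature oligodendrocytes were higher in Pfkfb3 (9.82 against 5.48 CPM, log2 difference 1.66 ± 0.29, adjusted p = 1.33e-06) and Aldoa (768 against 549 CPM, 1.20 ± 0.13, adjusted p = 8.14e-12). They were lower in 6: Aldoc (-2.35 ± 0.18), Ldha (-1.65 ± 0.16), Pfkp (-1.41 ± 0.19), Ldhb (-1.03 ± 0.16), Hk1 (-0.85 ± 0.15) and Pkm (-0.45 ± 0.14). Plain totals moved the median of all genes in this comparison by -0.69 and left the same split of 2 and 6, and with cells named by markers alone Pygb was called higher (0.51). Newly formed oligodendrocytes, a cluster of 454 cells led by Bmp4 and Gpr17, lay apart from both stages in 2 ratios, for which no test was set. From precursors through newly formed to mature cells the Ldha share was 31.5 ± 5.6%, 52.5 ± 3.3% and 20.9 ± 6.8%. The values of newly formed cells (48.8 to 57.7%) overlapped neither neighbour. The Hk2 share over the same stages was 1.08 ± 1.42%, 34.8 ± 9.7% and 3.99 ± 2.61%, with 25.0 to 47.1% in the 5 libraries of newly formed cells, from 124 UMIs of both hexokinases.

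Mature oligodendrocytes were themselves split. In the cluster led by Klk6 and Anln the Ldha share was 7.6 ± 3.9%, in that led by Il33 and Ptgds 25.9 ± 3.4% and in that led by Mal and Opalin 35.3 ± 9.0% (SD, n = 6 each). The first of these held 305 ± 52.3 CPM of Ldhb, with 243 to 357 CPM in the 6 libraries, against 120 ± 56.1 and 100.5 ± 35.8 CPM in the other two, whose values reached at most 198 CPM. Its Ldhb values overlapped with neither of the others. The astrocytes comprised a main cluster of 829 cells and 1 of 95 cells in which transcripts of myelin genes came to 47410 CPM and of which 37.9% came from male replicate 2. Pooled Aldoc was 2777 CPM in the main cluster and 538 CPM in the small one. Without the small cluster the difference in Aldoc from neurons was 4.25 in place of 4.08.

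Among neurons the aldolase and lactate dehydrogenase ratios varied by cluster. The clusters were compared by value, with no test. Pooled Aldoc was 25.6 to 54.1 CPM in 6 of 15 neuronal clusters and 151 to 311 CPM in the other 9. The 6 were led by Pdyn and Drd1, by Avp and Vip, by Foxp2 and Tshz1, by Adora2a and Penk, by Egr4 and Arc, and by Sln and Ebf2. Library by library, the highest Aldoc value in these 6 clusters was 61.3 CPM and the lowest in the other 9 was 118 CPM. Pygb followed the same division, with 11.1 to 15.9 CPM in the 6 clusters and 23.8 to 52.3 CPM in the others. The Ldha share ran between 18.1% in the cluster led by Npy, Sst and Lhx6 and 40.5% in an excitatory cluster led by Eomes and Sox14. In the first of these it was 18.7 ± 2.8% over 5 libraries (15.96 to 23.0%) and in the second 40.5 ± 1.1% (39.6 to 42.3%).

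**Figure D4:**
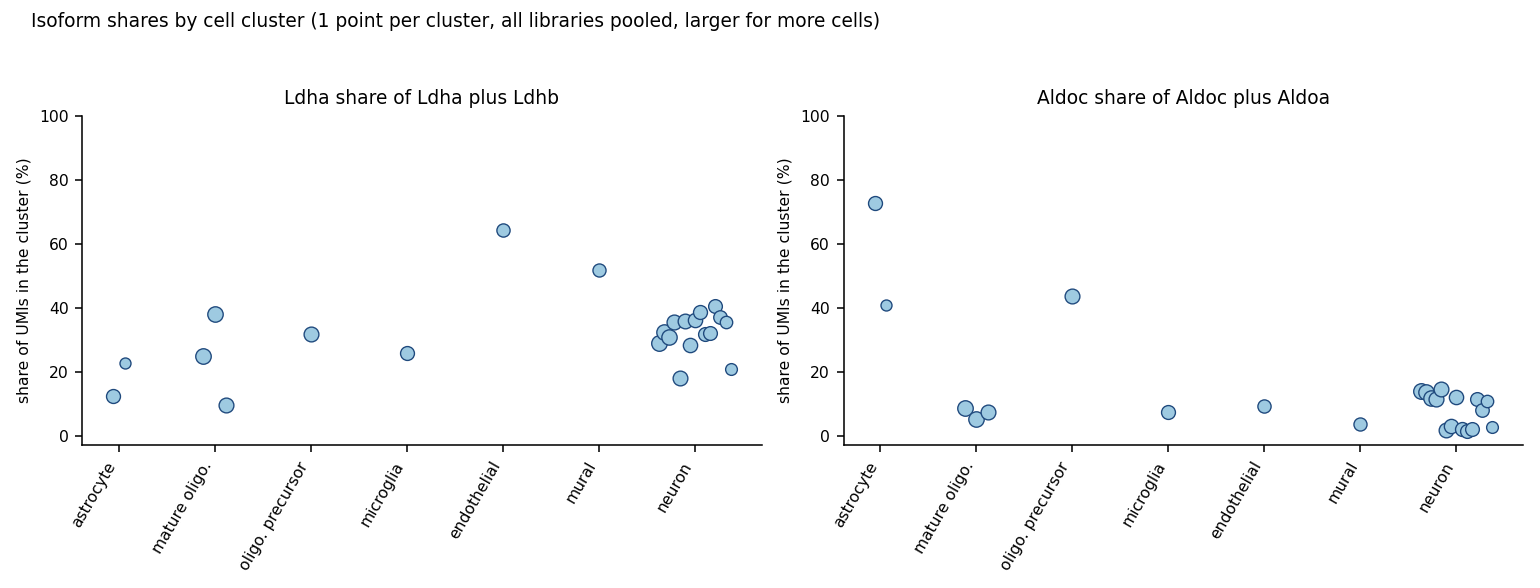
Pooled share of UMIs (y axis, percent) taken by Ldha of Ldha plus Ldhb (left) and by Aldoc of Aldoc plus Aldoa (right), with 1 point per cluster, sized by its cells, placed by cell class. The 3 mature oligodendrocyte clusters spread over 9.54 to 38.1% for Ldha, and the neuronal clusters fell into a lower and a higher group for Aldoc.

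Excitatory neurons were compared with inhibitory neurons over 5 libraries. Female replicate 3 had under 10 excitatory cells and was left out of both sides of the test. The CPM given for inhibitory neurons are means over 6 libraries and include it. The test called 35.4% of 14205 genes (16.9% higher, 18.5% lower). The differences among the 10 genes were small. Excitatory neurons were higher in Pygb (41.4 ± 3.3 CPM against 29.5 ± 2.5 CPM in inhibitory neurons, log2 difference 0.40 ± 0.05, adjusted p = 2.97e-06), Aldoc (244 ± 11.6 against 172 ± 22.4 CPM, 0.39 ± 0.03, adjusted p = 2.45e-09) and Hk1 (0.14 ± 0.04, adjusted p = 0.00278). They were lower in Ldhb (-0.21 ± 0.04), Pfkp (-0.17 ± 0.03), Ldha (-0.11 ± 0.04, adjusted p = 0.0208) and Pkm (-0.10 ± 0.03, adjusted p = 0.0133). With plain totals, which gave 3 higher and 2 lower, Ldha (-0.08) and Pkm (-0.07) were no longer called. Without the library block Hk1 (0.16), Pfkp (-0.17), Ldhb (-0.18), Ldha (-0.11) and Pkm (-0.08) were not called. Ldha was also not called with DESeq2 (-0.10) or without female replicate 1 (-0.11), male replicate 1 (-0.08) or male replicate 2 (-0.09), nor Pkm without male replicate 1 (-0.08) or male replicate 2 (-0.07), while Aldoa was called lower without male replicate 3 (-0.07) and with no count filter (-0.07). The dissociation-response genes moved with this contrast, 11 of 11 lower in excitatory neurons, and their part in it was not tested.

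The rest of the pathway was read from lists of 48 genes for glucose uptake, the other steps of glycolysis, lactate transport, pyruvate use and glycogen, of which 42 passed the filter on low counts. The glycogen list was the clearest in astrocytes, where 12 of 15 genes were higher than in neurons and none was lower, with a median log2 difference of 1.71 against -0.12 over all genes; with plain totals 12 were higher and 1 lower. Phkg1, the catalytic subunit of phosphorylase kinase, was at 166 ± 65.9 CPM in astrocytes and 2.81 ± 0.49 CPM in neurons (log2 difference 5.76 ± 0.18, adjusted p = 6.60e-33). Ppp1r3c, which targets a phosphatase to glycogen, was higher by 4.24 ± 0.24 and Pygm, the muscle phosphorylase, by 3.89 ± 0.20. Eno2, the neuronal enolase, was lower in astrocytes (54.2 ± 42.9 CPM against 253 ± 66.0 CPM in neurons, -1.70 ± 0.21). Hk3, another hexokinase, had 0 UMIs in astrocytes, where 3 UMIs would be 0.79 CPM, and 1.02 ± 0.62 CPM in neurons. Over all lists 19 of 42 genes were higher and 12 lower in astrocytes, where 26.8% of all genes were higher and 32.8% lower.

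Mural cells also had glycogen genes above neurons, 8 of 15 with 3 lower, where 25.7% of all genes were higher and 33.3% lower. They were led by Stbd1, a glycogen-binding protein (17.6 ± 8.5 CPM against 0.73 ± 0.40 CPM in neurons, 4.47 ± 0.43), and Ppp1r3c (4.02 ± 0.35). Slc16a3, a lactate transporter, was at 36.9 ± 8.5 CPM in mural cells against 2.76 ± 0.93 CPM in neurons (4.29 ± 0.31). Lower in mural cells were Eno2 (-2.39 ± 0.29) and Pfkfb2, another maker of the activator of phosphofructokinase (-2.14 ± 0.63). Over all lists 14 of 42 genes were higher and 11 lower in mural cells, or 12 and 19 with plain totals, and the share called was near the 59.0% of all genes.

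Endothelial cells were set apart by transport. Slc2a1, the glucose transporter of the blood-brain barrier, was at 2325 ± 915 CPM in endothelial cells and 14.8 ± 2.6 CPM in neurons (7.29 ± 0.16, adjusted p = 5.56e-39), and Slc16a1, a lactate transporter, at 204 ± 90.9 CPM against 9.56 ± 4.71 CPM (4.17 ± 0.17). Slc16a1 took 96.7 ± 4.4% of the UMIs of 3 monocarboxylate transporters in endothelial cells and 79.2 ± 2.9% in mature oligodendrocytes, against 41.0 ± 20.1% in neurons. The neuronal mean included 0% in female replicate 3, from 8 UMIs. The other libraries lay between 48.7 and 50.7%, and the pooled neuronal share was 49.0%. Pgm1, from the glycogen list, was higher in endothelial cells by 4.26 ± 0.21. Slc16a7, the neuronal lactate transporter (-3.23 ± 0.62), and Eno2 (-2.30 ± 0.25) were lower. All 6 genes tested of lower glycolysis were lower in endothelial cells, where 35.6% of all genes were lower. Over all lists 7 of 42 were higher and 19 lower, a share near the 64.3% of all genes called. Red blood cell markers reached 47906 CPM in the endothelial cells of male replicate 1 and were at 0 in male replicate 3, and their part in these levels was not tested.

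In mature oligodendrocytes Slc16a1 (67.4 ± 8.4 CPM against 9.56 ± 4.71 CPM in neurons, 3.29 ± 0.14), Slc2a1 (3.04 ± 0.14) and Pcx, the pyruvate carboxylase (2.34 ± 0.11), were higher, and Eno2 (-3.36 ± 0.19) and Slc2a3, the neuronal glucose transporter (-3.21 ± 0.16), were lower. Over all lists 15 of 42 genes were higher and 19 lower, or 10 and 27 with plain totals, a share near the 78.4% of all genes called. In microglia Hk3 (38.6 ± 23.3 CPM against 1.02 ± 0.62 CPM in neurons, 6.44 ± 0.26), Slc16a3 (71.8 ± 58.7 against 2.76 ± 0.93 CPM, 5.20 ± 0.20) and Slc2a1 (3.50 ± 0.17) were higher, and Slc2a3 (-2.54 ± 0.26) and Eno2 (-2.14 ± 0.24) lower. Over all lists 10 of 42 were higher and 17 lower in microglia, or 7 and 30 with plain totals, and with TMM the share called was below the 74.0% of all genes. Of 8 hypoxia-response genes, 6 were tested. Against neurons 3 were higher and 0 lower in endothelial cells, 3 and 1 in mature oligodendrocytes, 3 and 2 in astrocytes, 2 and 1 in mural cells and 2 and 2 in microglia, or 2 and 4 in microglia with plain totals, DESeq2 or free RNA subtracted. The list summed to 668 to 1251 CPM in endothelial cells, 724 to 920.4 CPM in mature oligodendrocytes and 155 to 238 CPM in microglia, against 254 to 299 CPM in neurons, and its part in the Slc2a1 and Slc16a1 levels was not tested. Enolase thus had a neuronal form as well, as Eno2 took 34.5 ± 5.7% of enolase UMIs in neurons and between 3.08 and 12.1% on average in the 6 other classes.

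**Figure D5:**
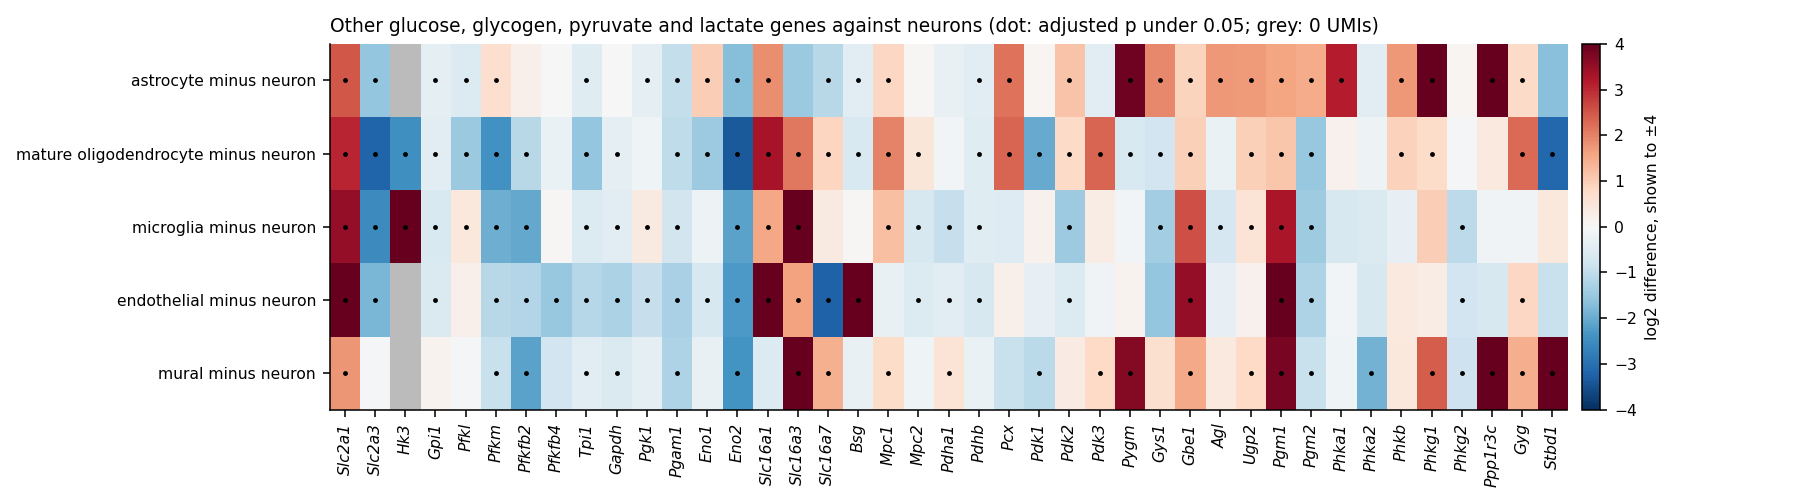
Log2 difference from neurons (colour, shown to 4 in either direction) of other genes of glucose, glycogen, pyruvate and lactate metabolism in 5 cell classes with TMM scaling, with a dot at an adjusted p under 0.05 and grey where a class had 0 UMIs. Glycogen genes such as Phkg1 and Ppp1r3c stood out in astrocytes, Slc2a1 and Slc16a1 in endothelial cells and Hk3 and Slc16a3 in microglia.

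Between mature oligodendrocytes and precursors, Slc2a1 (77.8 ± 11.1 against 19.6 ± 5.2 CPM, 2.58 ± 0.18), Pcx (2.19 ± 0.17) and Slc16a1 (1.98 ± 0.17) were higher in mature cells, and Slc2a3 (-2.03 ± 0.20), Gys1, the glycogen synthase (-2.02 ± 0.30), and Eno1 (-1.97 ± 0.14) were lower. Over all lists 17 of 42 genes were higher and 13 lower in mature cells, where 31.2% of all genes were higher and 32.5% lower, a balance that turned with plain totals to 8 and 21. Between excitatory and inhibitory neurons 5 of 44 tested were higher and 7 lower, or 9 and 5 with plain totals, a smaller share than the 35.4% of all genes called. Hk3 (1.34 ± 0.29, from 47 and 71 UMIs) and Pdk1, a kinase that restrains pyruvate dehydrogenase (0.39 ± 0.06), were higher in excitatory neurons, and Ppp1r3c (-0.67 ± 0.26), Slc2a3 (-0.47 ± 0.05) and Pdk3 (-0.42 ± 0.09) were lower.

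With the pools taken as unpaired, none of the 10 genes differed by sex past the threshold. A fit with the replicate number as a block was read for the 10 genes in all cells only, not within the classes. In neurons that block raised the count of all genes called from 7 to 507. In 62 tests of the 10 genes, in all cells and in 6 classes, edgeR called 0, and 1 had an unadjusted p under 0.05; DESeq2 in all cells called 0 of 10. That 1 was Pfkfb3 in microglia, at 32.8, 27.7 and 92.9 CPM in female pools against 52.9, 47.6 and 76.1 CPM in male pools, with a log2 difference (female minus male) of -0.77 ± 0.33 and an adjusted p of 0.9999. The female and male values overlapped. Ldha in neurons was 308, 286 and 369 CPM in female pools and 300.0, 289 and 373 CPM in male pools, a log2 difference of -0.01 ± 0.13. Aldoc in astrocytes was 3874, 2002 and 3626 CPM in female pools and 2821, 1627 and 3578 CPM in male pools, a log2 difference of 0.23 ± 0.41. In all cells 7 of 16088 genes were called (0.0435%), or 4 without male replicate 3, and in neurons 7 of 14880 (0.047%). In the other classes 0.0471% of genes were called in astrocytes, 0.0546% in mature oligodendrocytes, 0.0606% in microglia, 0.0355% in endothelial cells and 0.0553% in mural cells. The difference between each main class and neurons was also tested for a difference by sex in 50 tests, of which 0 passed the adjusted threshold and 1, Pfkfb3 in astrocytes, had an unadjusted p under 0.05. Of all genes that test called 0.0% in astrocytes, 0.0156% in mature oligodendrocytes, 0.0% in microglia, 0.0156% in endothelial cells and 0.0078% in mural cells. On simulated counts of neurons split by sex, 58% of genes changed 2-fold and 100% of genes changed 4-fold were recovered. The simulation changed only genes above a set level and gave every gene the same fixed dispersion. Hk2 (0.81 CPM in neurons) and Pfkfb3 (6.61 CPM) lay under that level. Recovery at the levels and spread of the 10 genes themselves was not tested. Differences by sex of 2-fold or less may therefore go undetected in neurons. Recovery by sex in all cells and in the classes other than neurons was not tested.

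For each gene, the genes with the most similar levels over 11 named classes were found among 7528 genes by Pearson's r of log2(CPM + 1). The classes come from the same libraries, so r is a description only. Aldoc was most like Mt3, a brain metallothionein (r = 0.96), Slc1a2, a glutamate transporter (0.96), and Clu (0.96), all high in astrocytes. Pygb was most like Fxyd1 (0.90), Atp1b2 (0.89) and Tmem47 (0.88), and Hk2 most like Ehd1 (0.89), Hmox1 (0.87) and Eif4a1 (0.86). Pkm followed Fgf13 (0.97) and Sub1 (0.97), Pfkp followed Actr3b (0.94) and Ndufaf4 (0.94), and Aldoa followed Hpca (0.92). The closest genes to Ldha and Ldhb were Ddx3x (0.91) and Arhgef40 (0.88), to Hk1 Inafm1 (0.90) and to Pfkfb3 Otulin (0.87).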

How the data were processed

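The deposited counts are whole UMI counts per gene and cell in 1 table of 6 libraries, which the authors made with Cell Ranger 2.0.0 on mm10, per the submitters' processing notes; no source used here states the gene annotation or the strand of counting. Gene symbols and barcodes were deposited beside them, and the library was read from the number at the end of each barcode. Cells with under 500 genes or over 20% mitochondrial UMIs and doublets called by Scrublet (1002) were left out. The rest were clustered with scanpy 1.11.5 and leidenalg 0.10.2 without the 58 genes of glucose metabolism, and clusters were named from marker lists.

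UMIs were summed per class and library where at least 10 cells were present. Differences were tested with edgeR 4.0.16 (TMM factors, filterByExpr at a minimum count of 10, quasi-likelihood test) in R 4.3.3. Isoform shares were tested with an exact two-sided sign-flip test over libraries, computed with numpy 2.4.6. The fits were tested on simulated counts. Floors are 3 UMIs, cover counting error only and take no account of duplicated or free molecules. Alternatives were DESeq2 1.42.0, no count filter, no library block, sums of at least 20 cells, cells thinned to 2000 UMIs, cells named by markers alone, stricter doublet removal, free RNA subtracted, each library left out and, chosen after seeing the data, plain UMI totals and astrocytes without the myelin-rich cluster.

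The 10 genes, the pathway lists and the tests were chosen with earlier results of these data known. Beyond the 10 genes, those named are up to 3 per direction and comparison from the pathway lists by absolute log2 change among called genes, of which 1 gene is counted in the list totals but not reported here, and the 3 genes most alike in level among those of at least 50 CPM in a class; cluster names and the neuronal clusters compared were chosen after their values were seen. Promoters are RefSeq sequences of GRCm38.p6 and gene positions are from the mm10 annotation; all 10 genes matched both.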

Additional observations from a re-analysis of the deposited data

Results flagged for a closer look

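In 10 of 69 groups of a gene in a class, 1 library stood far from the others, measured by its gap to the nearest library against the range of the group; chance flags about 1 in 20 groups. Female replicate 3, the smallest library, accounted for 7 of the 10. It was high for Hk1 in microglia (123.8 CPM, nearest library 40.3, from 4 UMIs), Aldoc in microglia (185.7 CPM, nearest 67.2, from 6 UMIs), Pfkfb3 in astrocytes (61.8 CPM, nearest 32.9, from 3 UMIs) and Pygb in astrocytes (473.9 CPM, nearest 226.7, from 23 UMIs). It was low for Hk2 in neurons (0 CPM, nearest 0.79), Aldoc in neurons (126.1 CPM, nearest 188.4, from 56 UMIs) and Ldha in mature oligodendrocytes (10.5 CPM, nearest 43.6, from 5 UMIs).

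Male replicate 3 was low for Pfkp in mural cells (13.4 CPM, nearest 79.1, from 1 UMI) and high for Ldha in mural cells (522.2 CPM, nearest 358.5, from 39 UMIs). Male replicate 2 was high for Ldha in endothelial cells (481.7 CPM, nearest 354.6, from 228 UMIs).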

How the results depend on the processing

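Of the values of single genes recomputed under the alternatives, 1073 kept their direction and their side of the threshold, 41 lost the call, 19 gained one and 36 changed sign. The values below are log2 differences unless said otherwise, and the cause of a change was not tested. With plain UMI totals, Hk2 in mature oligodendrocytes minus neurons was -0.013, Pkm in microglia -0.64, Ldha in microglia -0.33 and Pygb in mature oligodendrocytes minus precursors -0.27. Without the count filter Pkm in microglia was -0.29 and Ldha in endothelial cells -0.057, and DESeq2 gave -0.11 for Pkm in microglia. With thinned cells Hk2 in mature oligodendrocytes was -0.029, with free RNA subtracted Hk2 in astrocytes was -0.25, and with stricter doublet removal Hk2 in mural cells was -0.055. Leaving out a library gave -0.33 to 0.57 for Hk2 in astrocytes and -0.14 to 0.29 for Pkm in microglia.

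Between female and male pools in all cells, DESeq2 gave 0.13 and thinning 0.041 for Hk2, no filter gave -0.0013 for Pfkp, and thinning gave -0.024 for Pkm and -0.17 for Pygb. Leaving out a library gave -0.18 to 0.074 for Hk1, -0.35 to 0.36 for Hk2, -0.16 to 0.19 for Pfkp, -0.11 to 0.039 for Aldoa, -0.0024 to 0.23 for Aldoc, -0.094 to 0.12 for Pkm, -0.056 to 0.093 for Ldha and -0.048 to 0.15 for Ldhb, none of them called.

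Counts of genes called were 2091 in place of 5035 for excitatory minus inhibitory neurons without the library block. By sex, no filter gave 25 genes in mature oligodendrocytes, 20 in microglia, 10 in endothelial cells, 50 in mural cells and 16 in neurons, in place of 6, 4, 2, 3 and 7; DESeq2 gave 10 in mature oligodendrocytes and thinning 12 in neurons. Leaving out a library gave 4 to 7 in all cells, 1 to 4 in astrocytes, 4 to 21 in microglia, 1 to 3 in endothelial cells and 2 to 6 in mural cells.

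Female and male pools share replicate numbers 1 to 3. Same-numbered pools deviated together with correlations of 0.38, 0.081 and 0.29 in all cells. The labels do not say whether a shared number pairs pools, and the sex tests above took the pools as unpaired. With the replicate block the sex comparison called 14 genes in mature oligodendrocytes, 12 in microglia, 1 in endothelial cells, 19 in mural cells and 507 in neurons, and Pfkp in all cells was -0.021. In all cells and in neurons 5 of 6 pools correlated best with the pool of their own number.

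Differences in isoform shares moved as follows, in percentage points. With free RNA subtracted, Ldha in endothelial cells was 56.6, Aldoc in astrocytes 74.9, in endothelial cells -6.05 and in mural cells -9.17. With thinned cells the Hk2 share was 1.93 in astrocytes, 88.8 in microglia, -1.09 in endothelial cells and -0.18 in mural cells. Naming cells by markers alone gave 1.79 for Hk2 in astrocytes and -0.16 in mural cells, and stricter doublet removal gave -4.14 for Aldoc in endothelial cells and -0.19 for Hk2 in mural cells. Leaving out a library gave -2.87 to 0.22 for Aldoc in microglia, -0.041 to 0.63 for Hk2 in astrocytes and -0.23 to 0.41 for Hk2 in mural cells.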
